A study of Mus musculus with 10 samples.

Results

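The calcium buffer and sensor genes described here are 7: Pvalb, Calb1, Calb2, Calm2, Ncald, Hpca and Hpcal1. They were taken by gene symbol with every one of their probes, 9 of 25697 on the array, out of 16593 named genes. The set was chosen by the measured level of Pvalb, which is high in induced motor neurons, so the levels there are a description and carry no test. The arrays measured RNA of cells with an Hb9::GFP transgene, which expresses green fluorescent protein (GFP) from the promoter of the motor neuron gene Hb9, and that were sorted by fluorescence into a GFP-high and a GFP-medium gate. Embryonic cells came from the spinal cord of C57BL/6 mouse embryos at E13.5, ES-derived cells were differentiated from V6.5, a single mouse embryonic stem cell line, and induced cells were C57BL/6 embryonic fibroblasts reprogrammed by overexpressing 10 transcription factors that are not named in the labels. Each gate held 2 embryonic, 2 ES-derived and 1 induced array, so the origins had 4, 4 and 2 arrays. The labels do not state the culture time of the ES-derived and induced cells or how many animals, cultures or sorts the replicates came from. The tests therefore measure the spread between these arrays, which may be technical.

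Cytoplasmic calcium carries the signal of neuronal firing, and EF-hand proteins bind it through a helix-loop-helix. Buffers such as parvalbumin (Pvalb), calbindin (Calb1) and calretinin (Calb2) mainly shape the size and decay of the calcium signal, while sensors such as calmodulin (Calm2) and the neuronal calcium sensor family (Ncald, Hpca, Hpcal1) change shape on binding and act on other proteins. In the spinal cord, buffers mark groups of neurons: calbindin marks Renshaw cells, calretinin marks several interneuron groups, and most adult spinal motor neurons are poor in parvalbumin. Parvalbumin also marks proprioceptive sensory neurons and relaxes fast muscle fibres.

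Among these genes, Pvalb, Ncald and Hpcal1 each had both induced arrays above every embryonic and ES-derived array in measured level. The dimmest array, ES-derived GFP-high replicate 1, did not detect Pvalb, Ncald or Hpcal1. Its lowest detected level, 8.68, lay above the induced GFP-medium level of Pvalb and both induced levels of Hpcal1. It cannot be ranked below those arrays. Calb2, Calm2 and Hpca overlapped among all origins, and Calb1 was not detected on any array. RefSeq promoter windows, from 250 bases before to 50 bases after the start, were at hand for 3 of the 7 genes on mouse build GRCm38.p6. The windows of Pvalb and Hpcal1 are shown because both genes had their highest measured levels in induced cells. Capitals mark a match to TAAT, the core that homeodomain factors such as Hb9 and the LIM factors bind, on either strand. The Pvalb window lies at chr15:78206351-78206650 on the minus strand and the Hpcal1 window at chr12:17690559-17690858 on the plus strand.
Pvalb: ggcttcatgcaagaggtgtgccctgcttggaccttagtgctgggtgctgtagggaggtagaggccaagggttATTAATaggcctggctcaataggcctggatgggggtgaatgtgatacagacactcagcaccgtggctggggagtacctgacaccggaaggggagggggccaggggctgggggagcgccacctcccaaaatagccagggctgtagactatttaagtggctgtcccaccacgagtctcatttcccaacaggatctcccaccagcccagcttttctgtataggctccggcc
Hpcal1: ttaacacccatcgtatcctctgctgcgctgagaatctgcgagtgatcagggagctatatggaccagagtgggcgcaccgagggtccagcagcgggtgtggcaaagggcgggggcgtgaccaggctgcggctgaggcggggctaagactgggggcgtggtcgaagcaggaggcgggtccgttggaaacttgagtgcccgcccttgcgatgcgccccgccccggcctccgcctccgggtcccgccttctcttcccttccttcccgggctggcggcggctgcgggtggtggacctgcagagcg
The Pvalb window held 2 matches to TAAT, 1 on each strand, which overlap each other in the run ATTAAT, and the Hpcal1 window held 0. TAAT was present in 58% of the 32851 promoter windows of the same length. The other motifs searched on both strands were CANNTG, the E-box that basic helix-loop-helix factors bind, which 72.3% of windows hold, and TGACG, part of the cyclic AMP response element, which 20.8% hold. Neither window shown had a match to them. A second annotated Pvalb start, with a window at chr15:78204188-78204487, had 2 E-box matches and 0 TAAT matches. The windows of Hpca, the third gene, whose origins overlapped, held 2, 0 and 2 TAAT matches and 2, 0 and 4 E-box matches. A match is a description of the letters and does not show binding.

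The arrays differed in brightness, which limits what can be said of low transcripts. Mean deposited intensity was 51.3 to 474 on embryonic, 3.16 to 577.2 on ES-derived and 140 to 166 on induced arrays. ES-derived GFP-high replicate 1 was the dimmest array, with 2095 detected probes and a lowest detected log2 level of 8.68, whereas the remaining 9 arrays had 6921 to 11441 detected probes. No pair of arrays was identical, and the highest correlation across probes between any pair was 0.983. Of 11 motor neuron markers, 5 to 7 were detected on embryonic, 2 to 6 on ES-derived and 3 to 5 on induced arrays. Mnx1, the gene of Hb9, had a detected signal in induced cells alone (2 of 2 arrays), and Chat, which makes acetylcholine, on 4 embryonic, 2 ES-derived and 2 induced arrays. Of the same 11, 6 were detected on neither induced array (Isl2, Lhx3, Nefl, Prph, Slc18a3 and Slc5a7), against 3 never detected in embryonic cells (Mnx1, Nefl and Slc18a3) and 3 in ES-derived cells (Mnx1, Nefl and Prph). The median induced minus embryonic difference of the 9 tested was -0.53. Of 8 general neuronal markers, 6 to 7, 5 to 6 and 6 were detected, with a mean log2 level of 8.54 to 8.88, 6.50 to 9.26 and 8.82 to 8.84.

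Levels below are log2 normalised intensities from 1 probe per gene, after background correction with an offset of 16 and quantile normalisation. They serve to compare arrays for 1 gene, not genes with each other. A gene was detected on an array where the deposited detection p was under 0.01. The offset shrinks differences of dim genes. Fewer cells of a type and less RNA per cell cannot be told apart in these bulk samples.

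**Figure D1:**
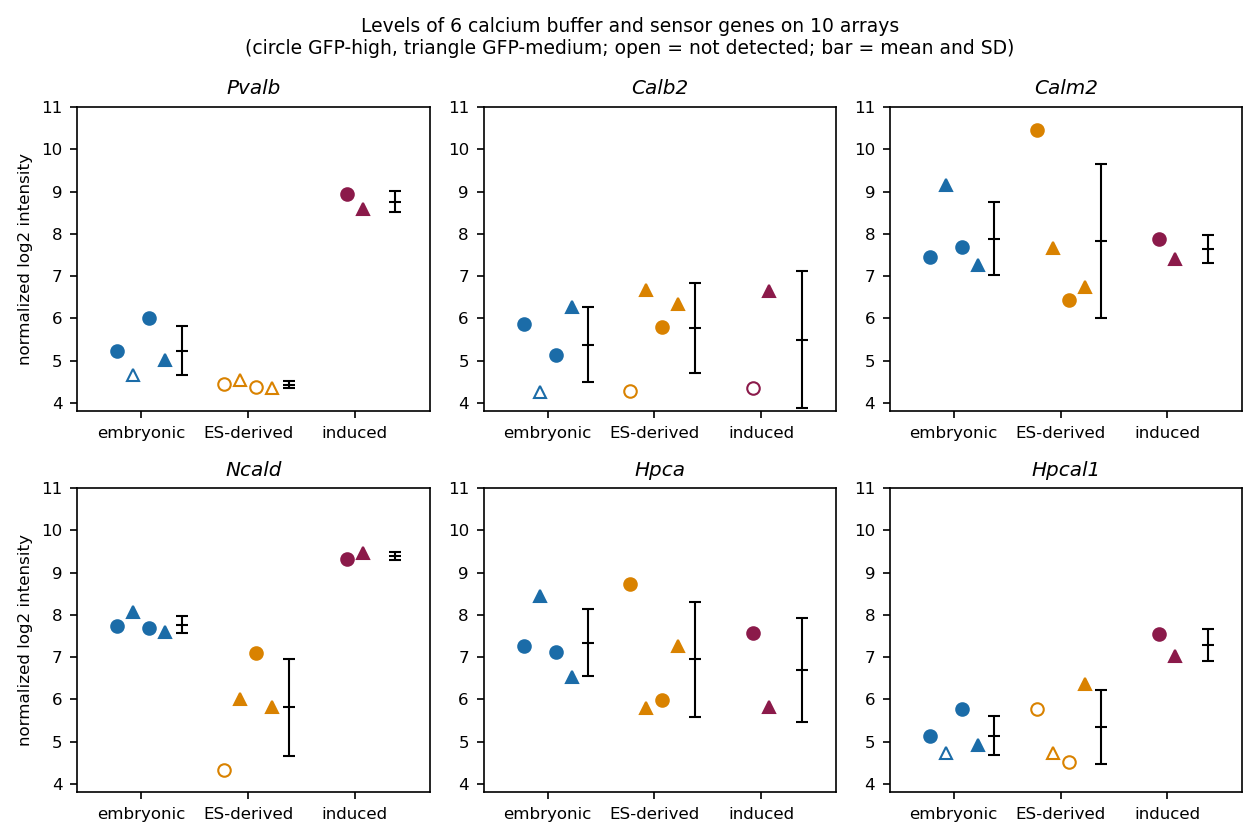
Log2 normalised level of the 6 genes that passed the detection filter, on each of the 10 arrays, by origin; circles are GFP-high and triangles GFP-medium arrays, open where the gene was not detected, and bars are the mean and SD. Induced arrays stand above all others for Pvalb, Ncald and Hpcal1, and the origins overlap for Calb2, Calm2 and Hpca.

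Pvalb (chr15:78191112-78206400, GRCm38.p6) encodes the fast cytosolic calcium buffer parvalbumin. On the induced arrays its level was 8.94 in the GFP-high and 8.59 in the GFP-medium gate, from deposited intensities of 447 and 264. On the embryonic arrays it was 5.24 and 6.02 in GFP-high replicates 1 and 2 and 4.66 and 5.01 in the GFP-medium ones, detected on 3 of 4. In ES-derived cells it was 4.45 and 4.38 in GFP-high and 4.55 and 4.35 in GFP-medium, detected on 0 of 4. In measured level the 3 origins did not overlap, with induced highest and ES-derived lowest. On the dimmest array, ES-derived GFP-high replicate 1, the lowest detected level was 8.68, above the induced GFP-medium level of 8.59. That array cannot be ranked below the induced GFP-medium one. The ES-derived values and the embryonic value of 4.66, which was not detected, are at the background of their arrays. The means were 5.23 ± 0.58 (SD, n = 4) in embryonic, 4.43 ± 0.09 (SD, n = 4) in ES-derived and 8.76 ± 0.24 (SD, n = 2) in induced cells.

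As a description, Pvalb was 3.53 ± 0.41 (SE) higher in induced than in embryonic cells, or 11.6-fold on this scale, the 12th largest of 9679 differences. Against ES-derived cells, where it was not well above background, it was at least 6.27-fold higher, and at least 11.3-fold without the dimmest array. This bound sets each ES-derived array at the lowest level among its detected probes where the gene lay below it. The gap to embryonic cells was 3.31 in the GFP-high and 3.76 in the GFP-medium gate, so that both induced arrays carried it. Across the alternative settings it lay between 2.77 and 4.30.

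Because parvalbumin also belongs to fast muscle and to proprioceptors, markers of both were set beside it. Of 13 skeletal muscle markers, 8 to 10 were detected on embryonic, 1 to 6 on ES-derived and 1 on each induced array. The mean log2 level of the 10 tested was 8.07 to 8.93, 4.37 to 5.79 and 4.56 to 4.62 in these origins, and the contractile genes Myl1, Myh8, Actc1 and Mylpf and the muscle creatine kinase gene Ckm were among 11 not detected on either induced array. The part of muscle RNA in the Pvalb levels was not tested. Of 8 proprioceptor markers, 4 to 6 were detected on embryonic, 1 to 4 on ES-derived and 2 on each induced array. The same 2 of the 8 were detected on both induced arrays, and 6 were detected on neither. Among these 6, the proprioceptor transcription factor genes Runx3 and Etv1 were detected on no array. Of 12 spinal interneuron markers, 2 to 8, 2 to 6 and 2 were detected. The same 2 of the 12 were detected on both induced arrays, and 10 were detected on neither. Among these 10, the inhibitory transmission genes Gad2 and Slc6a5 were detected on no array. Slc32a1, another of the 10, was detected in embryonic and ES-derived cells. Of 9 fibroblast markers, 4 to 7, 0 to 4 and 0 to 3 were detected. Col1a1 and Thbs1 were detected on no array, while Col3a1, Dcn and Twist1 were detected in embryonic and ES-derived cells and on neither induced array. With Lum, 6 of the 9 were detected on neither induced array. The induced GFP-high array detected the 3 others, among them Prrx1, which was detected on no ES-derived array.

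Calb1 (chr4:15881264-15906709), the gene of calbindin, was detected on 0 of 10 arrays. Its single probe had deposited intensities from -18.6 to 1.40, which is the background of the arrays, so that only an upper bound is known. It did not enter the tests.

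Calb2 (chr8:110142526-110168212), the gene of calretinin, varied more between arrays of an origin than between origins. On the embryonic arrays its level was 5.87 and 5.12 in GFP-high and 4.27, not detected, and 6.26 in GFP-medium. In ES-derived cells it was 4.28, not detected, and 5.78 in GFP-high, and 6.67 and 6.35 in GFP-medium. The induced GFP-high array did not detect it, at 4.35, and the GFP-medium array had 6.65. The ES-derived GFP-medium arrays lay above the GFP-high ones, 1 of which did not detect the gene, the embryonic gates overlapped, and the induced gates held 1 array each. The means were 5.38 ± 0.88 (SD, n = 4), 5.77 ± 1.06 (SD, n = 4) and 5.50 ± 1.62 (SD, n = 2) in embryonic, ES-derived and induced cells. A second Calb2 probe was detected on 0 of 10 arrays.

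**Figure D2:**
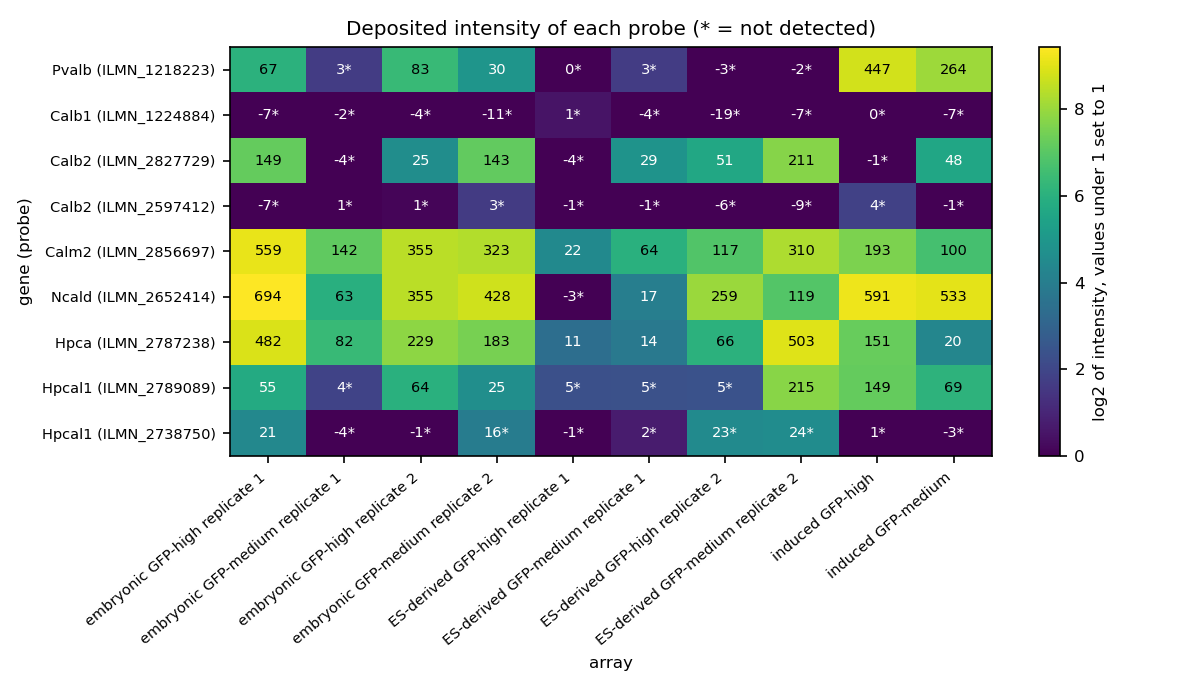
Deposited background-subtracted intensity of all 9 probes (rows) on the 10 arrays (columns), rounded, with an asterisk where the probe was not detected and colour for log2 intensity. Calm2 and Hpca were detected on all 10 arrays, Calb1 and the second Calb2 probe on none, and Pvalb on the induced and 3 embryonic arrays.

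Calm2 (chr17:87433401-87446935) is one of the genes that encode calmodulin, the general calcium sensor that activates kinases and the phosphatase calcineurin. It was detected on all 10 arrays. Its level was 7.45 and 7.68 in embryonic GFP-high and 9.17 and 7.25 in embryonic GFP-medium cells. In ES-derived cells it was 10.44 and 6.44 in GFP-high and 7.66 and 6.74 in GFP-medium, and in induced cells 7.88 and 7.41. The highest values, 10.44 and 9.17, stood on the arrays of lowest mean intensity, 3.16 and 51.3. The lowest, 6.44 and 6.74, stood on the brightest ones, with 575 and 577.2. Pearson's r of the Calm2 level with the log2 mean intensity was -0.94 over the 10 arrays and -0.84 without the dimmest one. The part of array brightness in these levels was not tested. The means were 7.89 ± 0.87 (SD, n = 4), 7.82 ± 1.82 (SD, n = 4) and 7.65 ± 0.33 (SD, n = 2), and the ES-derived mean was 6.95 ± 0.64 (SD, n = 3) without the dimmest array.

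Ncald (chr15:37366175-37792519) encodes neurocalcin delta, a myristoylated sensor that moves to membranes when it binds calcium. Its order was the same as that of Pvalb, but it was well measured in embryonic cells too. The embryonic level was 7.73 and 7.68 in GFP-high and 8.06 and 7.59 in GFP-medium cells. The ES-derived level was 4.32, not detected, and 7.10 in GFP-high and 6.00 and 5.83 in GFP-medium cells, and the induced level was 9.32 and 9.46. The 3 origins did not overlap, though the value of 4.32 is from the dimmest array, where the lowest detected level was 8.68. The means were 7.77 ± 0.20 (SD, n = 4), 5.81 ± 1.14 (SD, n = 4) and 9.39 ± 0.10 (SD, n = 2), and the ES-derived mean was 6.31 ± 0.69 (SD, n = 3) without the dimmest array.

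Hpca (chr4:129111570-129125919) encodes hippocalcin, a sensor of the same family. It was detected on all 10 arrays, at 7.27 and 7.13 in embryonic GFP-high and 8.44 and 6.54 in embryonic GFP-medium cells. In ES-derived cells it was 8.74 and 5.99 in GFP-high and 5.80 and 7.27 in GFP-medium, and in induced cells 7.57 and 5.83. The value of 8.74 is from the dimmest array, at a deposited intensity of 10.7, and lay just above the lowest detected level there, 8.68. The origins overlapped, with means of 7.35 ± 0.80 (SD, n = 4), 6.95 ± 1.36 (SD, n = 4) and 6.70 ± 1.23 (SD, n = 2). The ES-derived mean was 6.36 ± 0.80 (SD, n = 3) without the dimmest array. As for Calm2, the highest values stood on the arrays of mean intensity 3.16 and 51.3. Pearson's r of the Hpca level with the log2 mean intensity was -0.57, and -0.19 without the dimmest array.

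Hpcal1 (chr12:17690750-17791944) encodes hippocalcin-like protein 1, another member of the family. Its level was 7.55 and 7.02 on the induced arrays. On the embryonic arrays it was 5.12 and 5.78 in GFP-high and 4.74, not detected, and 4.92 in GFP-medium. In ES-derived cells it was 5.77 and 4.53 in GFP-high and 4.72 and 6.36 in GFP-medium, detected on the last of these alone. The ES-derived value of 5.77 is from the dimmest array, whose lowest detected level, 8.68, lay above both induced levels. That array cannot be ranked below them. In measured level embryonic and ES-derived cells overlapped and both lay below the induced arrays, with means of 5.14 ± 0.45 (SD, n = 4), 5.35 ± 0.87 (SD, n = 4) and 7.29 ± 0.38 (SD, n = 2). The second Hpcal1 probe did not show this: it was detected on 1 embryonic array, at 4.71, and on neither induced array, at 4.42 and 4.30. The higher level in induced cells therefore rests on 1 of 2 probes.

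ES-derived and embryonic cells were compared first, since this contrast had no part in the choice of the genes. With limma's moderated test in a model of origin and gate, 0 of the 6 genes that passed the detection filter passed the threshold of 0.05 on the Benjamini-Hochberg adjusted p, where 0.899% of all 9679 features were. At an unadjusted p under 0.05 there were 2, Pvalb and Ncald, against 11.1% of all features. The same 2 genes were lower in ES-derived cells without overlap of the arrays, as were 5.06% of all features. For Pvalb this rests on values that were not detected, 4.66 on embryonic GFP-medium replicate 1 against at most 4.55 on the ES-derived arrays. For Ncald the dimmest ES-derived array did not detect the gene, at 4.32. That array's lowest detected level, 8.68, lay above every embryonic level of Ncald, so it cannot be ranked below them.

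Ncald differed by -1.96 ± 0.53 (SE; 95% interval -3.15 to -0.76; limma adjusted p = 0.163), the 221st lowest of the 9679 differences. Each ES-derived array that detected it lay below every embryonic array. The difference was -1.41 ± 0.35 (limma adjusted p = 0.0668) without the dimmest array and -0.86 with values that were not detected raised to the lowest detected level of their array. It was called without ES-derived GFP-high replicate 2 (limma adjusted p = 0.0398), which left the dimmest array as the only ES-derived GFP-high one, and with array weights (0.0113), and its limma adjusted p over all 22 alternatives ranged from 0.0113 to 0.766. Pvalb differed by -0.80 ± 0.34 (95% interval -1.55 to -0.05; limma adjusted p = 0.403). With values that were not detected raised in the same way its sign turned, to 0.63, so no fold can be given.

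For the other 4 genes the interval of the difference between ES-derived and embryonic cells held 0. Calb2 differed by 0.39 ± 0.63, with an interval from -1.01 to 1.80, and Calm2 by -0.07 ± 0.84, with an interval from -1.96 to 1.83. Hpca differed by -0.39 ± 0.71, from -1.99 to 1.20, and Hpcal1 by 0.20 ± 0.48, from -0.87 to 1.28. Their limma adjusted p lay between 0.860 and 0.987. With values that were not detected raised, Calb2 stood at 1.14 ± 0.67 and Hpcal1 at 1.11 ± 0.68, and with median scaling Calm2 at -1.60 ± 0.61 and Hpca at -1.53 ± 0.94, none of them called. These intervals leave room for differences of more than 1 log2 unit. The median of the 6 differences was -0.23, and that of all features was -0.13.

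The GFP gates were compared over the 3 origins. By limma 0 of the 6 genes were called and 0 had an unadjusted p under 0.05, as 0% and 2.08% of all features did. Calb2, not detected on 3 of 10 arrays, differed by -0.95 ± 0.56 for GFP-high minus GFP-medium (95% interval -2.21 to 0.30; limma adjusted p = 0.962), and by -0.20 with values that were not detected raised. Within origins this gap was 0.23 in embryonic, -1.47 in ES-derived and -2.29 in induced cells, the latter from single arrays. Hpca, at 0.56 ± 0.64, stood at -0.29, 0.83 and 1.74 in the same origins. Pvalb differed by 0.37 ± 0.30, or 0.91 with values that were not detected raised, and the 3 others by between -0.16 and 0.34. Whether the gate gap differed between ES-derived and embryonic cells was tested as an interaction, and limma called 0 of 6 genes and 0% of all features, with 0 of 6 and 1.61% at an unadjusted p under 0.05. For Calb2 that difference was -1.71 ± 1.17 (limma adjusted p = 0.999).

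**Figure D3:**
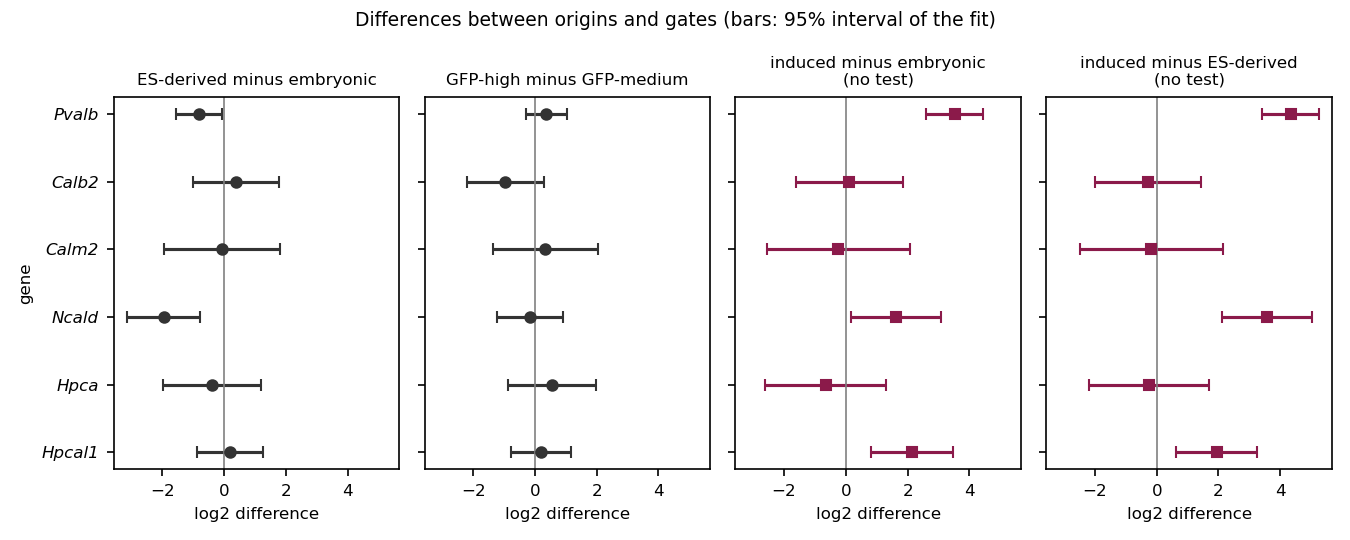
Difference in log2 normalised level, with 95% intervals, of the 6 tested genes in each comparison. All intervals but those of Pvalb and Ncald cross 0 for ES-derived minus embryonic cells, and all cross 0 for the gates; the induced comparisons are shown as a description.

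Induced cells share their embryonic and ES-derived reference arrays with the comparison above, and their values follow as a description. Of the 6 genes, 3 were higher than in embryonic cells without overlap, which 20.3% of all features were, and the same 3 were higher than in ES-derived cells, which 13.9% of all features were. Besides Pvalb these were Ncald, by 1.62 ± 0.65 over embryonic and 3.57 ± 0.65 over ES-derived cells, and Hpcal1, by 2.14 ± 0.59 and 1.94 ± 0.59. Hpcal1 was detected on 1 of 4 ES-derived arrays, and with values that were not detected raised it stood 0.79 ± 0.83 above those cells. The dimmest ES-derived array, with a lowest detected level of 8.68, cannot be ranked below the induced arrays for Hpcal1. For Pvalb that array cannot be ranked below the induced GFP-medium one. Ncald stood 1.61 above embryonic cells in the GFP-high and 1.63 in the GFP-medium gate, and Hpcal1 2.10 and 2.19. In all 21 alternatives that give these contrasts the 3 genes stayed above both other origins. Without the dimmest array the gap of Ncald to ES-derived cells was 3.03 ± 0.42. Calb2 stood at 0.12 ± 0.77 against embryonic and -0.27 ± 0.77 against ES-derived cells, Calm2 at -0.24 ± 1.03 and -0.17 ± 1.03, and Hpca at -0.65 ± 0.87 and -0.25 ± 0.87. The sign of these last 3 genes turned in some alternatives.

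The genes whose levels ran most like each of these over the 10 arrays were listed by Pearson's r of log2 levels, as a description. Closest to Pvalb were the surface glycoprotein gene Thy1 (r = 0.984), the calcium sensor gene Kcnip3 (0.982), the proteoglycan gene Sdc3 (0.978), Tmem176a (0.977) and the chitinase-like gene Chil1 (0.976). The arrays share their origins, and for all 5 the 2 induced arrays lay above the other 8, over which r was 0.93, 0.83, 0.79, 0.95 and 0.77. Of those 8 arrays, 3 detected Pvalb and 1 detected Kcnip3, so these values rest in large part on background readings of Pvalb. The 5 genes were also picked by r over arrays that include these 8. Closest to Ncald were Lxn (0.975), the matrix protease inhibitor gene Timp3 (0.966) and the respiratory chain gene Ndufb10 (0.953), with 0.956, 0.939 and 0.927 without the dimmest array. Closest to Hpcal1 were the taurine transporter gene Slc6a6 (0.972), Igsf21 (0.933) and the sterol reductase gene Dhcr7 (0.923). Closest to Calm2 were Mb, Ago4 and Ubxn11 (0.958 to 0.940, and 0.891 to 0.851 without the dimmest array), to Hpca Apeh, Vim and Wdr24 (0.932 to 0.905), and to Calb2 Alg8, Pdcd11 and Galnt10 (0.920 to 0.911). Among the genes themselves, Pvalb ran with Hpcal1 (0.816) and Ncald (0.777), Calm2 with Hpca (0.774), and Calb2 opposite to Hpca (-0.844). The 2 induced arrays were highest for Pvalb, Hpcal1 and Ncald, and the level of Pvalb there served to choose the set. Those 2 arrays are part of the first 2 values, and r over the other 8 was not computed for these pairs.

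The wider calcium pathway was read from 121 listed symbols in 4 lists, of which 104 were on the array and 59 were tested. Between ES-derived and embryonic cells limma called 2 of 59, both lower, and the lower calls over all features came to 0.816%. Both were in the list of pumps, exchangers and stores, where 17 of 33 genes on the array were tested. At an unadjusted p under 0.05 there were 11 of 59, where 11.1% of all features passed it. Between the gates limma called 0 of 59, with 0 at an unadjusted p under 0.05.

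Atp2b2 encodes a calcium pump of the plasma membrane. Its level was 7.18 and 6.50 in embryonic GFP-high and 7.37 and 6.89 in embryonic GFP-medium cells, against 4.38 and 4.72 in ES-derived GFP-high and 4.53 and 5.78 in ES-derived GFP-medium cells. It was detected on 4 embryonic arrays and on 1 ES-derived array, and fell by 2.13 ± 0.40 on the log2 scale (limma adjusted p = 0.0493). Atp2a1 encodes the reticulum calcium pump of fast muscle, and muscle markers were high on the same embryonic arrays. It was detected on 4 embryonic and 2 ES-derived arrays and fell by 2.26 ± 0.43 on the log2 scale (limma adjusted p = 0.0493). Both calls were marginal: Atp2a1 was called in 5 and Atp2b2 in 3 of 22 alternatives, with limma adjusted p from 0.00213 to 0.518 and from 0.0310 to 0.609. With values that were not detected raised to the lowest detected level the differences were -0.99 and -0.64.

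In the other lists limma called 0 genes between ES-derived and embryonic cells, with 1, 2 and 5 at an unadjusted p under 0.05 in the order below (11.1% of all features). Of 5 tested EF-hand and S100 proteins, S100a10 stood at -2.31 ± 0.95 (limma adjusted p = 0.393) and S100a11 at -0.84 ± 0.54 (0.622). Of 14 tested sensors and calmodulin family members, Sri, the gene of sorcin, stood at -2.30 ± 0.54 (limma adjusted p = 0.107) and Ncs1, which founded the neuronal sensor family, at -1.84 ± 0.81 (0.437). Of 23 tested calmodulin-binding proteins, the calcineurin regulator Rcan2 stood at -2.40 ± 0.49 (limma adjusted p = 0.0621) and the calcineurin subunit gene Ppp3r1 at -1.80 ± 0.42 (0.107). The median of the 59 differences was -0.18, close to the -0.13 of all features. Without the dimmest array limma called 1 of 59 higher and 3 lower, where 2.79% of all features were called, and Cib1 and Rcan2 joined the pumps. In the gate comparison the values with the smallest p per list were those of S100a13 (-0.94 ± 0.74), Hpcal4 (0.86 ± 0.45), Ppp3cb (0.55 ± 0.29) and Sdf4 (1.39 ± 0.71), each with a limma adjusted p of 0.962.

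**Figure D4:**
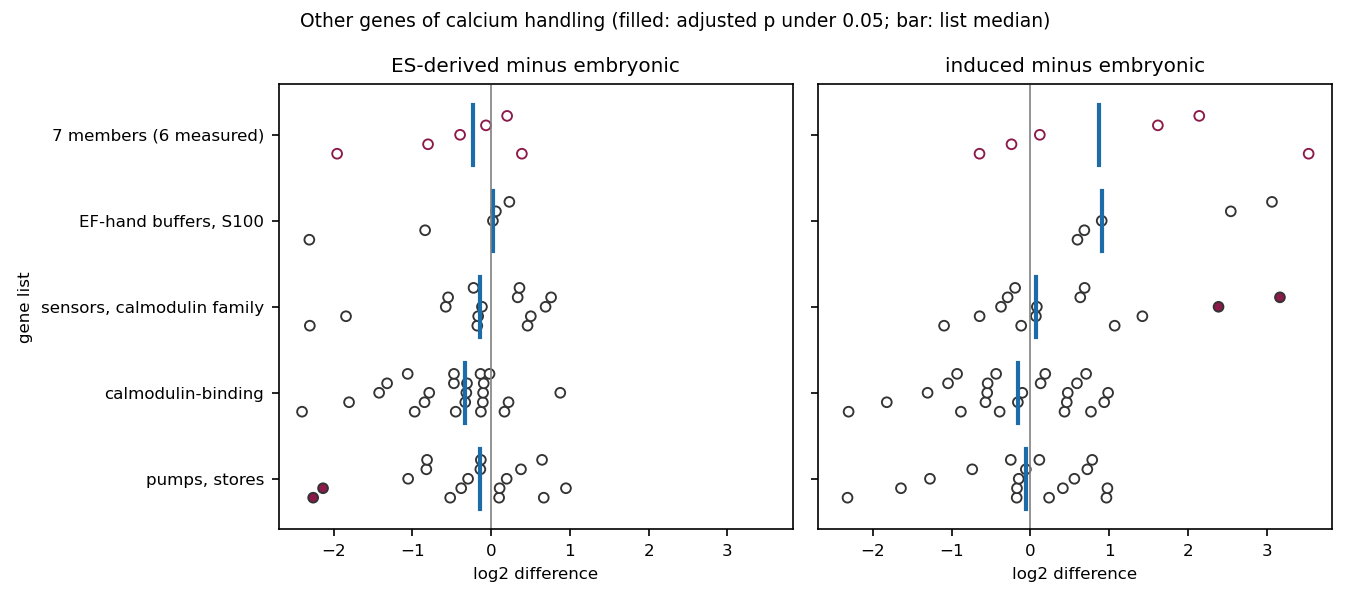
Difference in log2 normalised level of the 59 tested pathway genes, by list, and of the 6 buffer and sensor genes in the top row, for ES-derived minus embryonic (left) and induced minus embryonic cells (right); each point is a gene, bars are list medians and filled points were called by limma (the top row is unfilled throughout). The filled points are Atp2a1 and Atp2b2 on the left and Tesc and Kcnip3 on the right.

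In induced cells 2 of 59 pathway genes were called higher than in embryonic cells and 3 higher than in ES-derived cells, where 0.444% and 0.558% of all features were, and nothing is read from these counts, since the contrasts served to choose the set. Tesc, the gene of the EF-hand protein tescalcin, stood at 7.47 and 7.81 on the induced arrays and between 4.28 and 4.71 on the other 8, of which 1 detected it. Kcnip3, a sensor that binds potassium channels and DNA, stood at 6.92 and 6.98 on the induced arrays and between 4.25 and 4.89 on the others, of which 1 detected it. The induced levels were at least 2.88-fold (Tesc) and 1.78-fold (Kcnip3) above those of ES-derived cells, and at least 5.21-fold and 3.23-fold without the dimmest array. Atp2b2 stood at 8.03 and 7.39 on the induced arrays, above all embryonic and ES-derived ones in measured level. The lower of these was close to the 7.37 of embryonic GFP-medium replicate 1. The dimmest ES-derived array did not detect Atp2b2. With a lowest detected level of 8.68, that array cannot be ranked below the induced ones. The S100 genes S100a13 (3.07 ± 1.01) and S100a6 (2.54 ± 0.79) were above embryonic cells without overlap, and the calcineurin subunit gene Ppp3r1 (-2.31 ± 0.52), the calcineurin regulator gene Rcan2 (-1.82 ± 0.60) and Atp2a1 (-2.32 ± 0.52) were below.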

How the data were processed

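RNA of sorted cells was hybridised to 10 Illumina MouseRef-8 arrays after Trizol extraction, double amplification and biotin labelling, per the labels. The authors deposited a non-normalized table with a linear intensity and a detection p-value for every probe and array, per the file headers, and BeadStudio (version not stated) is named in the submitters' processing notes. Intensities below 0 show that background was subtracted before deposit. The authors' normalized table of intensity values, made by a method that the labels and headers do not state, served as an alternative.

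Intensities were corrected with normexp (limma 3.58.1, R 4.3.3; detection p-values, offset 16), brought to log2 and quantile normalized. A probe needed a detection p under 0.01 on 2 or more arrays, and per gene the passing probe of highest mean was used. This left 9679 features, of which 8967 are genes and 712 probes without a symbol (1719 of 25697 probes had no symbol). Origin and gate were fitted additively on all 10 arrays (lmFit and eBayes, two-sided, 6 residual degrees of freedom), with Benjamini-Hochberg adjustment over all features and calls at an adjusted p under 0.05. The gate difference between origins was tested on the 6 group means (4 degrees of freedom). The fit was tested on simulated data.

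The genes, lists and tests were chosen with earlier results of these data known. All 7 genes are named. Of each pathway list, up to 4 called genes, or 2 of smallest p with none called, could be named per comparison, and in the induced comparisons up to 4 of largest difference without overlap. The genes of highest correlation are 5 for Pvalb and 3 for the others. The alternatives changed background correction, offset, scaling, filter, probe choice, weights, blocks and arrays left out. Raising values that were not detected to the lowest detected level of their array was added after seeing the data.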

Additional observations from a re-analysis of the deposited data

How the results depend on the processing

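Under 22 alternatives most results kept their direction and their side of the threshold or moved little, in 99 of 108 recomputed main values and 449 of 474 recomputed differences of the 6 genes. The pathway results did not: 30 of 88 recomputed values kept, with calls lost in 36 and counts moved in 22, and the counts over all features moved in 33 of 108. Neither tally is a measure of stability, since part of the values could not change. The 6 genes started uncalled in every tested comparison. A tested difference that kept its sign and stayed uncalled therefore counted as kept, whatever its size. In the induced comparisons only a move larger than the residual SD was counted, so a smaller move that turned the sign counted as kept. The gap of Pvalb to embryonic cells stays the same when only the filter changes or an ES-derived array is left out. The gate counts started where 0 of all features were called, so their staying at 0 says little. The count of the 6 genes called between ES-derived and embryonic cells was 0, and 1 (Ncald) with array weights; leaving out 1 array in turn gave 0 to 1. The count called for the gate difference between origins was 0 to 1 with 1 array left out, with Calm2 called without ES-derived GFP-high replicate 2, which leaves the dimmest array alone in its group. Pvalb, 3.53 above embryonic cells, stood at 2.77 with an offset of 50, 3.02 with median scaling and 4.30 with the authors' values. Its 4.33 over ES-derived cells became 3.20, 6.17 with the authors' values, and 2.65 with values not detected raised to the lowest detected level. The cause was not tested.

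Some tested differences turned their sign. All of these were uncalled, as was every tested difference of the 6 genes in the main fit. Between ES-derived and embryonic cells these were Calb2 (-0.13 with median scaling, -0.22 without embryonic GFP-medium replicate 1), Calm2 (0.49 without that array, 0.53 and 0.29 without ES-derived GFP-high or GFP-medium replicate 2), Hpca (0.092 with array weights, 0.14 without embryonic GFP-medium replicate 1, 0.08 without ES-derived GFP-high replicate 2), Hpcal1 (-0.15 with median scaling, -0.23 without ES-derived GFP-medium replicate 2) and Pvalb (0.63 with values not detected raised). Over all alternatives Calb2 reached 1.14, Hpcal1 1.11, Calm2 -1.60 and Hpca -1.53. With 1 array left out in turn these ranged from -0.22 to 0.78 (Calb2), -1.01 to 0.53 (Calm2), -0.97 to 0.14 (Hpca) and -0.23 to 0.56 (Hpcal1). Between gates they were Calm2 (-0.42 without the dimmest array), Hpcal1 (-0.18 without the 3 dimmest) and Ncald (0.60 with median scaling, 0.12 with array weights, 0.28 without the dimmest array, 0.38 without the 3 dimmest, 0.71 with values not detected raised), ranging with 1 array left out from -0.42 to 0.81 for Calm2 and from -0.58 to 0.28 for Ncald.

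Of all features, 87 were called between ES-derived and embryonic cells, 6 with median scaling or with values not detected raised, 550 with array weights, 35 to 270 with 1 array left out and 409 without the 3 dimmest. Median scaling moved the median difference of all features from -0.13 to -0.58. Same-numbered arrays deviated together with r from -0.09 to 0.10 over 2 pairs each, so the numbers are not taken as pairs; with the replicate block 37 features and 0 of the 6 genes were called between ES-derived and embryonic cells, and 0 between gates. Low transcripts cannot be measured on the dimmest array, where the lowest detected log2 level was 8.68.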
